A study of Homo sapiens with 6 samples.

Results

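The MYC, MAX and MXD network was described through 10 genes, MYC, MAX, MXD1, MXD3, MXD4, MXI1, MNT, MGA, MLX and MLXIP. They were taken by name from a deposited table of TPM values (transcript abundance per library, scaled for transcript length) with 18806 gene symbols. All 10 were found, and all 10 were among the 11151 genes that reached a TPM of 1 in at least 2 libraries and were tested. The values come from poly(A)+ RNA sequencing of Mono-mac-6, an established human acute myeloid leukemia line of monocytic character in which the MLL-AF9 fusion is present. The guides sgDDX6.1 and sgDDX6.2 both target DDX6, an RNA helicase of processing bodies that acts in mRNA decay and translational repression, and sgNS is the control guide. The title of the series concerns metabolic plasticity and drug resistance in this leukemia.

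Each of the 3 groups, sgDDX6.1, sgDDX6.2 and sgNS, had 2 libraries. All were made in the same Cas9-expressing clone, so the line is represented by 1 clone, and all received a guide by lentivirus and selection with blasticidin at 10 µg/ml and hygromycin B at 200 µg/ml for 1 to 2 weeks. The labels place the harvest on day 8 after infection, and the longer selection time leaves that day uncertain. No label states whether the 2 libraries of a group are separate cultures. The p-values therefore measure only the spread between these libraries, which may be technical. DDX6 itself had 54.41 and 51.97 TPM in sgDDX6.1 cells, 52.33 and 53.46 TPM in sgDDX6.2 cells, and 102.12 and 99.50 TPM in sgNS cells. Its level was thus lower in all 4 sgDDX6 libraries, by 0.91 on the log2 scale for both guides (limma, Benjamini-Hochberg adjusted p = 4.61e-09), and the guides differed by -0.01 (adjusted p = 0.918). Of 15 myeloid and monocytic markers found, 15 reached 1 TPM in at least 2 libraries, although CD14 stayed between 0.37 and 1.36 TPM. The summed level of that list was 15041 to 16340 TPM in sgDDX6 libraries and 10573 to 11048 TPM in sgNS libraries. Most of that sum was LYZ, the lysozyme gene, at 13819 to 14945 TPM in sgDDX6 libraries and 9531 to 10031 TPM in sgNS libraries. CD68, SPI1, CEBPA, TYROBP, CSF1R and CD4 were also higher in all 4 sgDDX6 libraries. SPI1, for example, had 341.46 to 357.41 TPM in sgDDX6 and 241.20 and 244.24 TPM in sgNS libraries. CD33, ITGAX, CSF3R and PTPRC overlapped between sgDDX6 and sgNS libraries. MPO lay the other way, at 28.99 to 41.51 TPM in sgDDX6 and 79.7 to 86.7 TPM in sgNS libraries. FCGR1A had 13.7 to 16.1 TPM in sgDDX6 and 21.6 to 24.7 TPM in sgNS libraries. ITGAM and CD14 were also lower in the sgDDX6 libraries. Markers of other cells reached 1 TPM in at least 2 libraries for 2 of 7 T and NK cell genes (CD3D, CD3E, CD3G and CD2 were at 0), 1 of 4 B cell, 1 of 5 erythroid, 0 of 4 megakaryocytic, 2 of 5 epithelial and 1 of 7 fibroblast and endothelial genes. NKG7 of the T and NK list had 128.53 to 187.35 TPM in sgDDX6 and 102.89 and 110.47 TPM in sgNS libraries. PECAM1 of the fibroblast and endothelial list had 135.36 to 200.46 TPM in sgDDX6 and 66.86 and 64.64 TPM in sgNS libraries. KRT18 of the epithelial list was lower, with 10.75 to 18.81 TPM in sgDDX6 and 19.62 and 19.82 TPM in sgNS libraries. CD8A had 0.92 to 3.54 TPM over the 6 libraries. Ribosomal protein genes took 17.1% to 18.1% of the TPM in sgDDX6 libraries and 22.3% in both sgNS libraries. The part of the myeloid markers in the results was not tested, and some results are also given after a rescaling without the ribosomal protein genes.

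MYC is a transcription factor that binds E-box DNA as a dimer with MAX and activates genes of ribosome biogenesis, translation and metabolism. MAX also dimerizes with the MXD proteins (MXD1, MXD3, MXD4 and MXI1), with MNT and with MGA, which bind the same sites and repress them, the MXD proteins and MNT through SIN3 and histone deacetylases and MGA through a variant Polycomb complex. MLX is a further partner, which pairs with MLXIP (MondoA), a sensor of glucose-derived sugar phosphates that drives TXNIP, and also with some of the MXD proteins and MNT. In myeloid leukemia MYC is known as a driver of proliferation, and MXD1 is known to increase as myeloid cells mature.

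The E-box CACGTG, the letters that these dimers recognise, was searched on both strands in RefSeq promoter windows (build GRCh38.p14, 250 bases before to 50 bases after each start). MYC had no window to search. Of the 9 network genes with a window, MXD4, MNT and MLX held it, against 8.77% of 27305 genes. The 3 sites are shown because they place the recognition sequence of the network next to its own genes, with the E-box in capitals. They lie on GRCh38.p14 at chr4:2262322-2262359 (minus strand, E-box beginning 238 bases before the start), chr17:2401228-2401273 (minus strand, 193 bases before) and chr17:42567030-42567075 (plus strand, 50 bases before).
MXD4: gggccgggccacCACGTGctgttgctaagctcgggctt
MNT: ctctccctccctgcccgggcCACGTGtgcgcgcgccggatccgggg
MLX: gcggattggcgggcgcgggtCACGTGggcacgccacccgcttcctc
A match of letters does not show that a factor binds there. The changes of these 3 genes with the DDX6 guides had no common direction, as given below.

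Of the 10 network genes, 6 passed the test for both DDX6 guides together (limma, Benjamini-Hochberg adjusted p under 0.05 over all tested genes), and 66.7% of all tested genes did so, so the share in the network was near the background. MYC, MXD1, MXI1 and MNT fell, MXD4 and MXD3 rose, and MAX, MGA, MLX and MLXIP did not pass. Of the 6, 2 were higher (33.8% of tested genes) and 4 lower (32.9%), and rescaling without ribosomal protein genes left 1 higher and 4 lower. The same 6 genes had all 4 sgDDX6 libraries on 1 side of both sgNS libraries, as did 63.4% of tested genes. The median absolute log2 change was 0.23 over the 10 genes and 0.23 over all tested genes. All log2 changes are of TPM + 1, which understates the change of low genes. In bulk RNA, fewer cells of a type and less RNA per cell cannot be told apart.

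**Figure D1:**
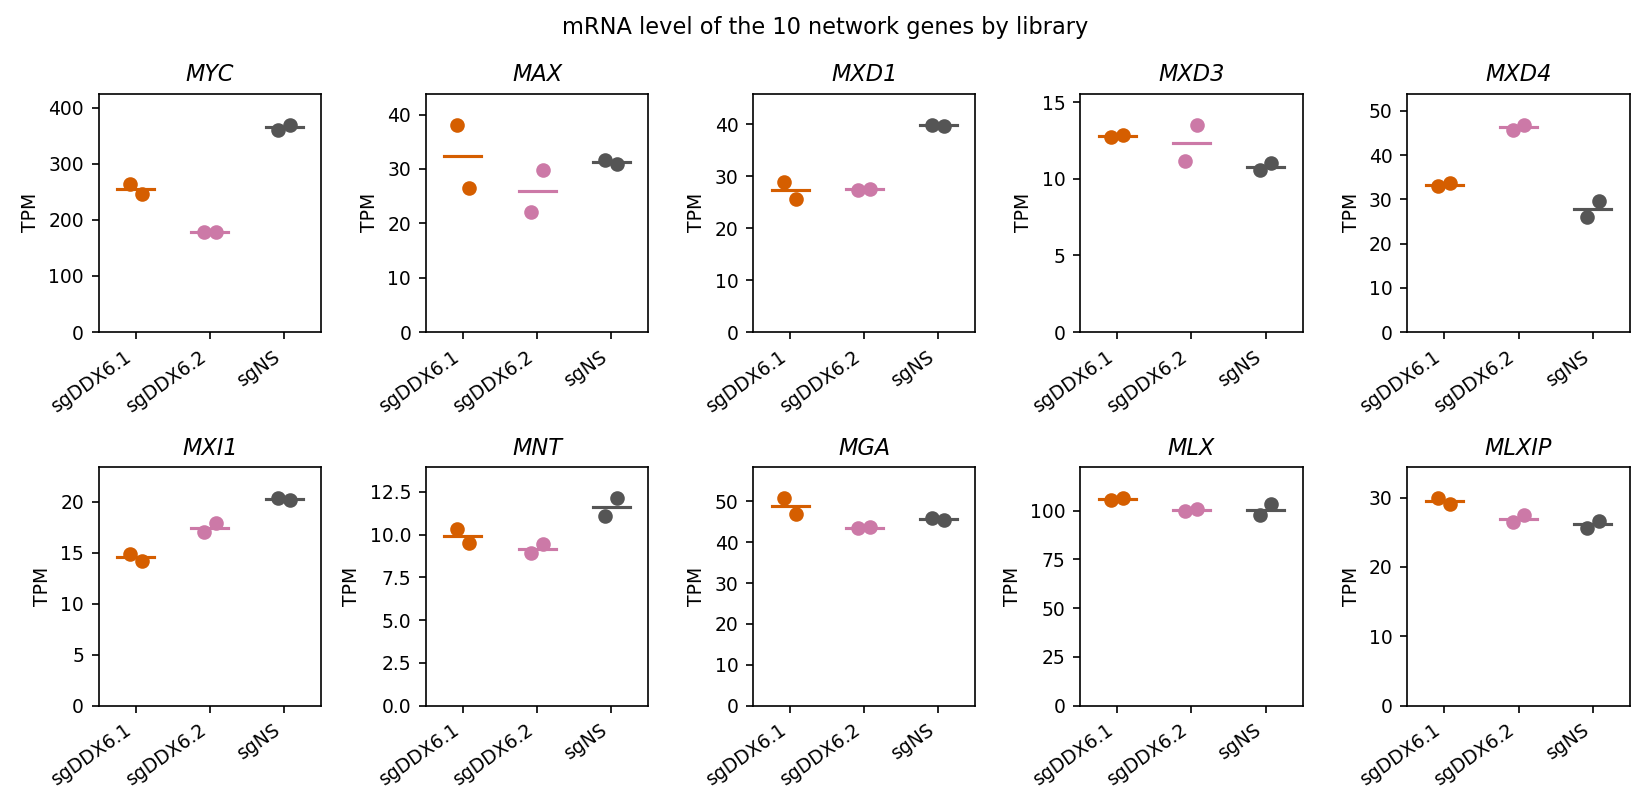
TPM of each network gene in the 6 libraries, by group (sgDDX6.1, sgDDX6.2, sgNS), with a point for each library and a line for the mean of 2. MYC sits at 178 to 264 in sgDDX6 libraries and at 360 and 370 in sgNS libraries, and MAX ranges from 22.1 to 38.2 within the sgDDX6 libraries alone.

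MYC was the most abundant network mRNA. It had 263.69 and 245.03 TPM in sgDDX6.1 cells, 178.18 and 178.19 TPM in sgDDX6.2 cells, and 359.83 and 369.53 TPM in sgNS cells. All 4 sgDDX6 libraries lay below both sgNS libraries, and the guides also did not overlap each other. For both guides the log2 change was -0.77 (SE 0.037, adjusted p = 7.4e-09 by limma with Benjamini-Hochberg adjustment), larger in size than that of 93.7% of tested genes. It was -0.52 for sgDDX6.1 (adjusted p = 1.09e-06) and -1.03 for sgDDX6.2 (adjusted p = 2.83e-09), which is 0.490 of the sgNS level. The guides themselves differed by -0.51 (SE 0.043, adjusted p = 1.15e-05, sgDDX6.2 minus sgDDX6.1), while DDX6 mRNA overlapped between them. The 4 MYC calls held under each of the 17 alternatives run for them. MYC lies at chr8:127735434-127741434 on the plus strand (GENCODE 29, GRCh38). Its annotated 3′ UTR has a GC content of 27.3%, lower than all but 2.42% of genes with a value.

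By the root mean square difference of log2(TPM + 1) from the sgNS mean over the 6 libraries, the genes most like MYC among 9297 others were FAM60A (0.068), MND1 (0.074) and IL15RA (0.078). FAM60A, a subunit of the SIN3 complex, averaged 82.3 TPM in sgDDX6.1, 63.2 in sgDDX6.2 and 126 in sgNS libraries. MND1, a meiotic recombination factor, changed by -0.74 on the log2 scale for both guides. IL15RA, the interleukin-15 receptor alpha chain, averaged 6.02 TPM in sgDDX6.1, 4.39 in sgDDX6.2 and 9.30 in sgNS libraries.

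MAX, the shared partner, had 38.15 and 26.54 TPM in sgDDX6.1 cells, 22.08 and 29.85 TPM in sgDDX6.2 cells, and 31.66 and 30.92 TPM in sgNS cells. The sgDDX6 libraries spanned the sgNS values, and on the log2 scale the pairs within each guide were farther apart than for any other network gene. The log2 change of -0.13 for both guides did not pass the test (95% interval -0.41 to 0.15, adjusted p = 0.404). It was 0.02 for sgDDX6.1 and -0.28 for sgDDX6.2, and neither passed (adjusted p = 0.895 and 0.122 by limma). The difference between the guides was -0.30 and did not pass (limma adjusted p = 0.137). Without sgDDX6.2 replicate 2 the change for that guide was -0.48 and the difference between the guides -0.51. Over the 17 alternatives, which include leaving out each library, the change for sgDDX6.2 ranged from -0.48 to -0.07. The difference between the guides ranged from -0.55 to -0.05, so both depended on single libraries. MAX lies at chr14:65006174-65102695 on the minus strand. The ratio of MYC to MAX TPM was 6.91 and 9.23 in sgDDX6.1, 8.07 and 5.97 in sgDDX6.2, and 11.4 and 12.0 in sgNS libraries. It was lower in all 4 sgDDX6 libraries, while the guides overlapped.

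The MXD family split in direction. MXD1 had 28.88 and 25.65 TPM in sgDDX6.1 cells, 27.37 and 27.50 TPM in sgDDX6.2 cells, and 39.90 and 39.62 TPM in sgNS cells. The guides overlapped each other and lay below sgNS. Its log2 change was -0.52 for both guides (SE 0.055, limma adjusted p = 5.35e-06), -0.53 for sgDDX6.1 and -0.52 for sgDDX6.2, with a difference between guides of 0.01 (95% interval -0.13 to 0.15). MXD1 lies at chr2:69897688-69942945 on the plus strand. Its 3′ UTR of 4661 bases holds 10 ATTTA pentamers, a letter pattern found in many unstable mRNAs. That of MYC holds 4 in only 476 bases, so the raw counts cannot be compared directly. The 3′ UTR of MGA holds 4, those of MXI1 and MLXIP 3 each, and those of MAX and MLX 2 each. MXD3, MXD4 and MNT have 0. The genes most like MXD1 were SPRY2, an inhibitor of receptor tyrosine kinase signaling (0.017), N4BP2 (0.028) and ATP8B4 (0.028). SPRY2 averaged 68.4 TPM in sgDDX6.1, 68.8 in sgDDX6.2 and 98.4 in sgNS libraries.

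MXD4 moved the other way. It had 32.90 and 33.70 TPM in sgDDX6.1 cells, 45.58 and 46.88 TPM in sgDDX6.2 cells, and 26.02 and 29.59 TPM in sgNS cells. The 3 groups did not overlap, and the order was sgDDX6.2, sgDDX6.1 and sgNS from high to low, the reverse of that of MYC. The log2 change was 0.49 for both guides (SE 0.056, limma adjusted p = 1.22e-05), 0.25 for sgDDX6.1 (adjusted p = 0.0048) and 0.72 for sgDDX6.2 (adjusted p = 1.84e-06). The difference between guides was 0.46 (adjusted p = 0.000338). Without sgNS replicate 1 the sgDDX6.1 change was 0.17 and no longer passed (adjusted p = 0.0581). MXD4 lies at chr4:2247432-2262294 on the minus strand, and with 62.3% its 3′ UTR has the highest GC content of the 10 genes.

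MXI1 and MXD3 changed less. MXI1 had 14.85 and 14.24 TPM in sgDDX6.1 cells, 17.01 and 17.88 TPM in sgDDX6.2 cells, and 20.37 and 20.21 TPM in sgNS cells. Its log2 change was -0.33 for both guides (SE 0.055, limma adjusted p = 0.000238), and it was lower with sgDDX6.1 (-0.45) than with sgDDX6.2 (-0.21), a difference between guides of 0.25 (adjusted p = 0.0116). The call for sgDDX6.2 was lost without sgDDX6.2 replicate 1 (adjusted p = 0.117) or sgNS replicate 1 (adjusted p = 0.0573), and that between guides without sgDDX6.2 replicate 2 (adjusted p = 0.11). MXD3, which is best known from proliferating cells, had 12.73 and 12.89 TPM in sgDDX6.1 cells, 11.20 and 13.55 TPM in sgDDX6.2 cells, and 10.56 and 11.05 TPM in sgNS cells. The lowest sgDDX6 library, at 11.20 TPM, lay just above the highest sgNS library, at 11.05 TPM. Its change of 0.20 for both guides (limma adjusted p = 0.0323) lost its call under 7 of 17 alternatives, with adjusted p-values up to 0.165. By guide, MXD3 changed by 0.23 with sgDDX6.1 (limma adjusted p = 0.0386). With sgDDX6.2 the change of 0.17 did not pass (adjusted p = 0.0949). MXI1 lies at chr10:110207605-110287365 (plus strand) and MXD3 at chr5:177301461-177312757 (minus strand).

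MNT, an antagonist expressed in most cells, had 10.35 and 9.48 TPM in sgDDX6.1 cells, 8.90 and 9.44 TPM in sgDDX6.2 cells, and 11.10 and 12.13 TPM in sgNS cells. Its level was lower in all 4 sgDDX6 libraries, with a log2 change of -0.26 for both guides (SE 0.068, limma adjusted p = 0.00545). The guides did not pass the test for a difference (-0.10, 95% interval -0.27 to 0.07). The call for both guides was lost without sgNS replicate 2 (-0.20, adjusted p = 0.0699), and that for sgDDX6.1 alone (-0.21, adjusted p = 0.0377) under 5 of 17 alternatives. MNT lies at chr17:2384060-2401118 on the minus strand.

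**Figure D2:**
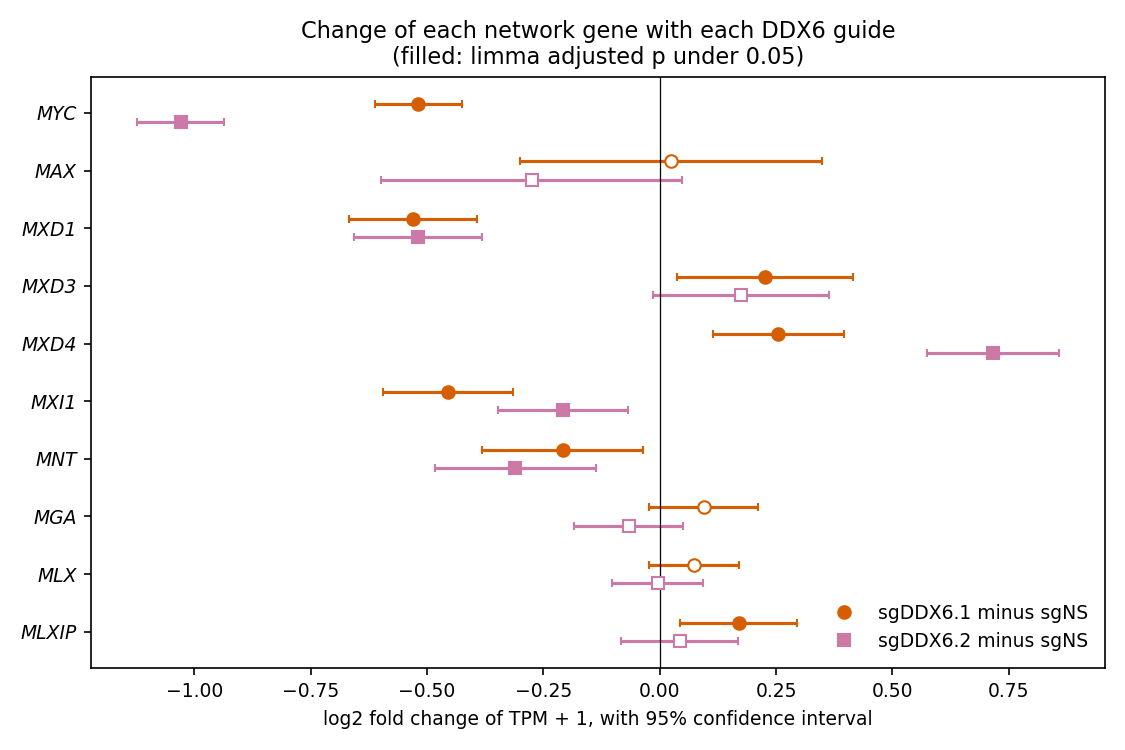
Log2 fold change of TPM + 1 for each network gene, sgDDX6.1 minus sgNS and sgDDX6.2 minus sgNS, with 95% intervals from limma; filled symbols passed the adjusted threshold of 0.05 and open symbols did not. MYC lies farthest to the left at -1.03 with sgDDX6.2 and MXD4 farthest to the right at 0.72 with the same guide, and MLX sits at 0.07 and -0.00.

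The total of the 5 antagonists changed little while its makeup did. Summed MXD1, MXD3, MXD4, MXI1 and MNT TPM was 99.7 and 96.0 in sgDDX6.1, 110 and 115 in sgDDX6.2, and 108 and 113 in sgNS libraries, so that the sgDDX6.2 and sgNS values overlapped and those of sgDDX6.1 were lower. MXD4 made up 33.0% and 35.1% of that sum in sgDDX6.1, 41.4% and 40.7% in sgDDX6.2, and 24.1% and 26.3% in sgNS libraries. MXD1 made up 28.96% and 26.73% in sgDDX6.1, 24.9% and 23.9% in sgDDX6.2, and 37.0% and 35.2% in sgNS libraries. Among these 5 genes, MXD4 was thus the most abundant mRNA in the sgDDX6 libraries, and MXD1 in the sgNS libraries. MGA, which also represses with MAX, was not part of that sum. The ratio of MYC to that sum was 2.64 and 2.55 in sgDDX6.1, 1.62 and 1.55 in sgDDX6.2, and 3.33 and 3.28 in sgNS libraries, with no overlap between groups. TPM is scaled for transcript length, so these sums compare mRNA numbers within a library and say nothing of protein. With 2 libraries a group these ratios and shares are given as values with no test.

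**Figure D3:**
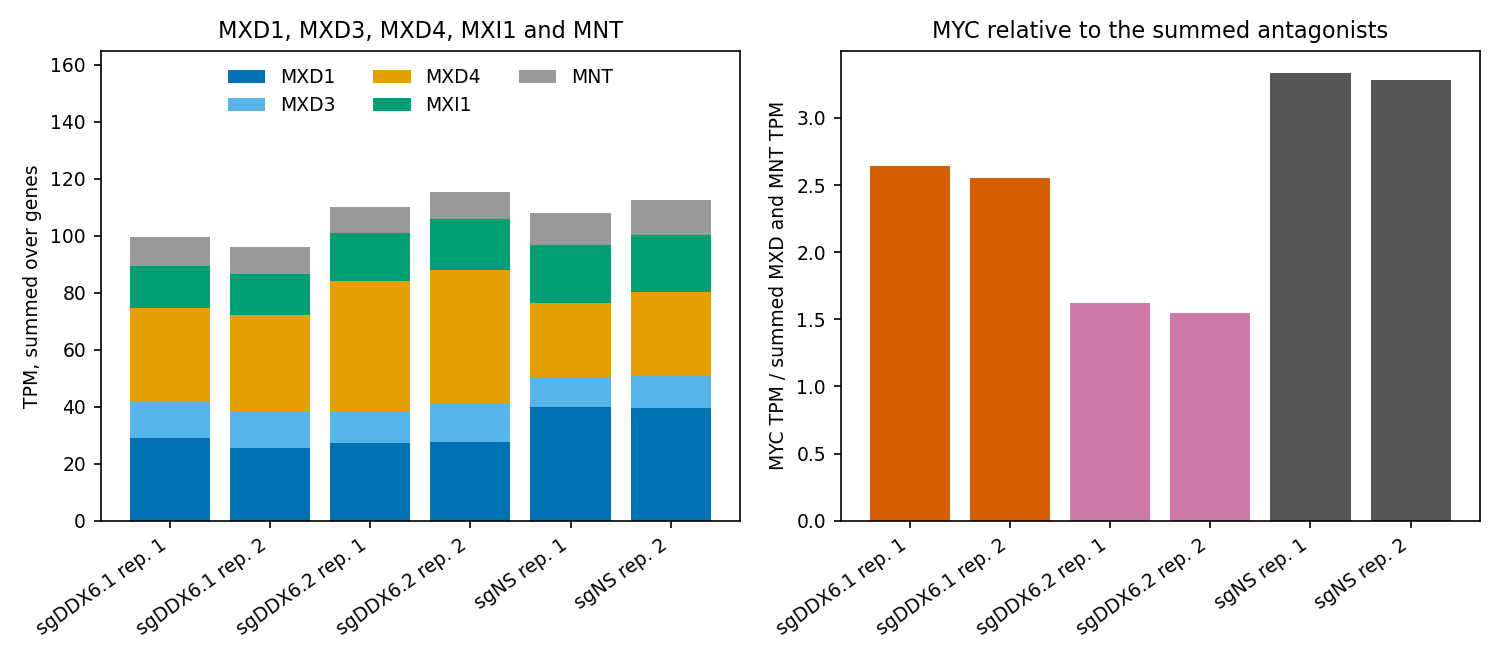
Left, summed TPM of MXD1, MXD3, MXD4, MXI1 and MNT in each library, stacked by gene; right, the ratio of MYC TPM to that sum, in the order sgDDX6.1, sgDDX6.2 and sgNS. The sum stays between 96.0 and 115 TPM, the MXD4 block is tallest in sgDDX6.2, and the ratio is lowest in sgDDX6.2 (1.55 and 1.62) and highest in sgNS (3.28 and 3.33).

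For both guides together, the smallest log2 changes were those of MGA and MLX. MGA, the scaffold of the variant Polycomb complex PRC1.6, had 50.81 and 47.02 TPM in sgDDX6.1 cells, 43.41 and 43.78 TPM in sgDDX6.2 cells, and 46.01 and 45.42 TPM in sgNS cells. The sgNS values lay between those of the guides, and the log2 change for both was 0.01 (95% interval -0.09 to 0.12, limma adjusted p = 0.805). The difference between guides of -0.16 passed the test (adjusted p = 0.0358) but lost its call under 6 of 17 alternatives. For sgDDX6.2 alone the change of -0.07 (adjusted p = 0.29) was -0.16 without ribosomal protein genes and then passed (adjusted p = 0.0184). MLX had 105.20 and 106.36 TPM in sgDDX6.1 cells, 99.73 and 100.57 TPM in sgDDX6.2 cells, and 97.72 and 103.30 TPM in sgNS cells, with a log2 change of 0.03 for both guides (95% interval -0.05 to 0.12). MLXIP had 29.92 and 29.07 TPM in sgDDX6.1 cells, 26.41 and 27.45 TPM in sgDDX6.2 cells, and 25.60 and 26.64 TPM in sgNS cells. It was higher with sgDDX6.1 by 0.17 (adjusted p = 0.0228), a call lost under 3 of 17 alternatives, while the 0.04 with sgDDX6.2 (adjusted p = 0.536) and the 0.11 for both guides (adjusted p = 0.0789) did not pass. The value for both guides passed after quantile normalization (adjusted p = 0.0499) or median centring (adjusted p = 0.041). MGA lies at chr15:41621224-41773081, MLX at chr17:42567068-42573239 and MLXIP at chr12:122078722-122147347, all on the plus strand.

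Counted by guide, 7 of 10 network genes passed for sgDDX6.1 against 61.6% of tested genes, and 5 of 10 for sgDDX6.2 against 64.2%. With sgDDX6.1, 3 were higher (31.8% of tested genes) and 4 lower (29.7%), or 1 and 4 after rescaling without ribosomal protein genes. With sgDDX6.2, 1 was higher (31.5%) and 4 lower (32.7%), or 2 and 4 after quantile normalization, and 1 and 5 after rescaling without ribosomal protein genes, when MGA gained a call. The count for sgDDX6.1 was 4 without sgNS replicate 1, when MXD3, MXD4 and MLXIP lost their calls. Between the guides, 4 of 10 passed, MXD4 and MXI1 higher and MYC and MGA lower with sgDDX6.2, against 35.6% of tested genes. Quantile normalization ended the MGA call, which left 2 higher and 1 lower. Both guides were compared with the same sgNS libraries. MYC and MLX led in all 3 groups. In sgDDX6.1 cells MGA (48.9 TPM), MXD4 (33.3), MAX (32.3), MLXIP (29.5), MXD1 (27.3), MXI1 (14.5), MXD3 (12.8) and MNT (9.91) followed, where the range of MAX covered MXD4 and MLXIP and overlapped MXD1. In sgDDX6.2 cells the order after MLX was MXD4 (46.2), MGA (43.6), MXD1 (27.4), MLXIP (26.9), MAX (26.0), MXI1 (17.4), MXD3 (12.4) and MNT (9.17), where MXD1, MLXIP and MAX overlapped. In sgNS cells the order of mean levels was MYC (365 TPM), MLX (101), MGA (45.7), MXD1 (39.8), MAX (31.3), MXD4 (27.8), MLXIP (26.1), MXI1 (20.3), MNT (11.6) and MXD3 (10.8). The ranges of MXD4 and MLXIP overlapped there, and those of the other neighbours did not. The rank of MXD4 among the 10 was 4 in sgDDX6.1, 3 in sgDDX6.2 and 6 in sgNS cells. MYC alone held 53.7% of the summed network TPM in sgNS cells.

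Along the annotated transcripts, the genes called higher for both guides together, MXD4 and less firmly MXD3, had 3′ UTR GC contents of 62.3% and 60.6%. These lay above 95.5% and 93.2% of genes. Of those that fell, MYC (27.3%), MXI1 (37.9%) and MXD1 (39.7%) lay below the median of 42.4%, and MNT (58.4%) lay above it. Of those not called, MGA (38.8%) lay below it, and MAX (47.5%), MLX (47.8%) and MLXIP (55.6%) lay above it. Across 10803 tested genes, Spearman's rho of 3′ UTR GC content with the log2 change for both guides was 0.235. Over whole transcripts rho was 0.239. There MYC (53.9%) and MNT (61.4%) lay above the median of 48.9%, and MXD1 (42.7%) and MXI1 (45.3%) below it. These values are a description over genes that share the same 6 libraries. The part of GC content in the network's changes was not tested.

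Relatives and partners of MYC were next set beside the network. Of all tested genes, 33.8% were higher and 32.9% lower for both guides. Of 4 tested relatives and MYC-binding genes, MYCBP, a MYC-binding protein, rose by 0.49 (limma adjusted p = 3.36e-06) and TCFL5, a basic helix-loop-helix factor, by 0.14 (adjusted p = 0.0453), and MYCL, the paralog of MYC, fell by 0.43 (adjusted p = 0.000997). MYCL had 8.26 and 9.04 TPM in sgDDX6.1 cells, 6.67 and 7.22 TPM in sgDDX6.2 cells, and 9.62 and 12.08 TPM in sgNS cells. MYCBP2 changed by 0.09 (adjusted p = 0.0643), MYCN was listed at 0 in all 6 libraries, MXD2 is another name of MXI1, and MLXIPL was not analysed here. The count of higher genes was 1 without sgDDX6.1 replicate 1, sgDDX6.2 replicate 1, sgDDX6.2 replicate 2 or sgNS replicate 2, and 1 after rescaling without ribosomal protein genes.

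Genes that control MYC moved in both directions. Of 29 tested regulators of the MYC gene and its mRNA, 10 were higher, 9 lower and 10 not called, with a median of 0.04 against 0.00 over all genes, beside the 33.8% and 32.9% of all tested genes given above. The split was 8 higher and 13 lower after quantile normalization, and 7 and 12 without ribosomal protein genes. SPI1, the myeloid factor PU.1, rose by 0.52 (adjusted p = 5.33e-08). TCF7L2, a Wnt pathway factor, fell by 0.86 (adjusted p = 1.17e-06), ZFP36L1, which promotes decay of AU-rich mRNAs, by 0.83 (adjusted p = 1.2e-06), and IGF2BP3, which stabilizes mRNAs including that of MYC, by 0.62 (adjusted p = 5.5e-06, all by limma with Benjamini-Hochberg adjustment). Of 20 factors of MYC protein turnover, 8 were higher and 7 lower with a median of 0.00, beside the same shares of all tested genes. The split was 5 and 8 without ribosomal protein genes, and with the 4 sgDDX6 libraries as 1 group 3 were lower. STUB1, an E3 ubiquitin ligase, rose by 0.65, AURKA, a kinase that stabilizes MYC family proteins, by 0.36, SKP2, an F-box protein, by 0.34 and PPP2R1A, a scaffold of protein phosphatase PP2A, by 0.31.

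Cofactors moved in both directions, as did all tested genes, of which 33.8% were higher and 32.9% lower for both guides. Of 22 MYC cofactors, 7 were higher and 5 lower (median 0.02), with HCFC1 up by 0.33, the acetyltransferase KAT2A up by 0.32, DMAP1 up by 0.29, and CCNT1, the cyclin of the elongation factor P-TEFb, down by 0.28. That split was 6 and 10 without ribosomal protein genes, and 1 was lower with the 4 sgDDX6 libraries as 1 group. Of 17 SIN3 and histone deacetylase genes that MXD and MNT proteins recruit, 7 were higher and 5 lower (median 0.06), or 6 and 7 without ribosomal protein genes, and 3 were lower without sgNS replicate 1. FAM60A fell by 0.79, and BRMS1, RBBP7 and the deacetylase HDAC1 rose by 0.51, 0.40 and 0.29. Of 12 PRC1.6 partners of MGA, 4 were higher and 5 lower (median -0.01), with L3MBTL2 up by 0.41 and E2F6 and PCGF6 down by 0.36 and 0.35. Only 3 were lower after quantile normalization, without sgDDX6.1 replicate 2, without sgDDX6.2 replicate 2 or without sgNS replicate 1. WDR5, HDAC1, HDAC2 and TXNIP each stand in more than 1 of these lists.

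Genes known to be activated by MYC were more often higher than lower for both guides together, where MYC mRNA was lower. Of 40 tested, 22 were higher, 10 lower and 8 not called for both guides (median 0.13), where 33.8% of all tested genes were higher and 32.9% lower. For sgDDX6.1 the counts were 26 higher and 2 lower (median 0.30), against 31.8% and 29.7% of all tested genes. For sgDDX6.2 they were 15 higher and 13 lower (median 0.02), near the 31.5% and 32.7% of all tested genes. TFRC, the transferrin receptor, had 530.40 and 494.67 TPM in sgDDX6.1 cells, 503.58 and 487.83 TPM in sgDDX6.2 cells, and 169.54 and 163.15 TPM in sgNS cells, a change of 1.59 (limma adjusted p = 1.41e-11). The mitochondrial chaperonin HSPE1 rose by 0.82, the spermidine synthase SRM by 0.66 and the nucleoside diphosphate kinase NME1 by 0.52. Treating the 4 sgDDX6 libraries as 1 group gave 13 higher and 2 lower, and rescaling without ribosomal protein genes 18 and 13.

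Between the guides the tested genes of this list differed in 1 direction. Of the 40 genes, 35 were lower with sgDDX6.2 than with sgDDX6.1 and 0 higher (87.5%, against 18.6% of all tested genes called lower and 17% called higher), with a median of -0.26 against -0.02 over all genes. All 40 differences were below 0, as were 55.3% over all tested genes, and the count stayed between 28 and 35 over the alternatives. HSPE1 had 404.42 and 398.76 TPM in sgDDX6.2 and 502.49 and 491.42 TPM in sgDDX6.1 cells, a difference of -0.31 (limma adjusted p = 0.000101). SRM differed by -0.21 (adjusted p = 0.00356), NME1 by -0.13 (adjusted p = 0.0169) and TFRC by -0.05 (adjusted p = 0.417). MYC was lower with sgDDX6.2 in the same libraries. The genes of the list share functions in ribosome biogenesis and nucleotide synthesis, so they are not independent of each other.

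**Figure D4:**
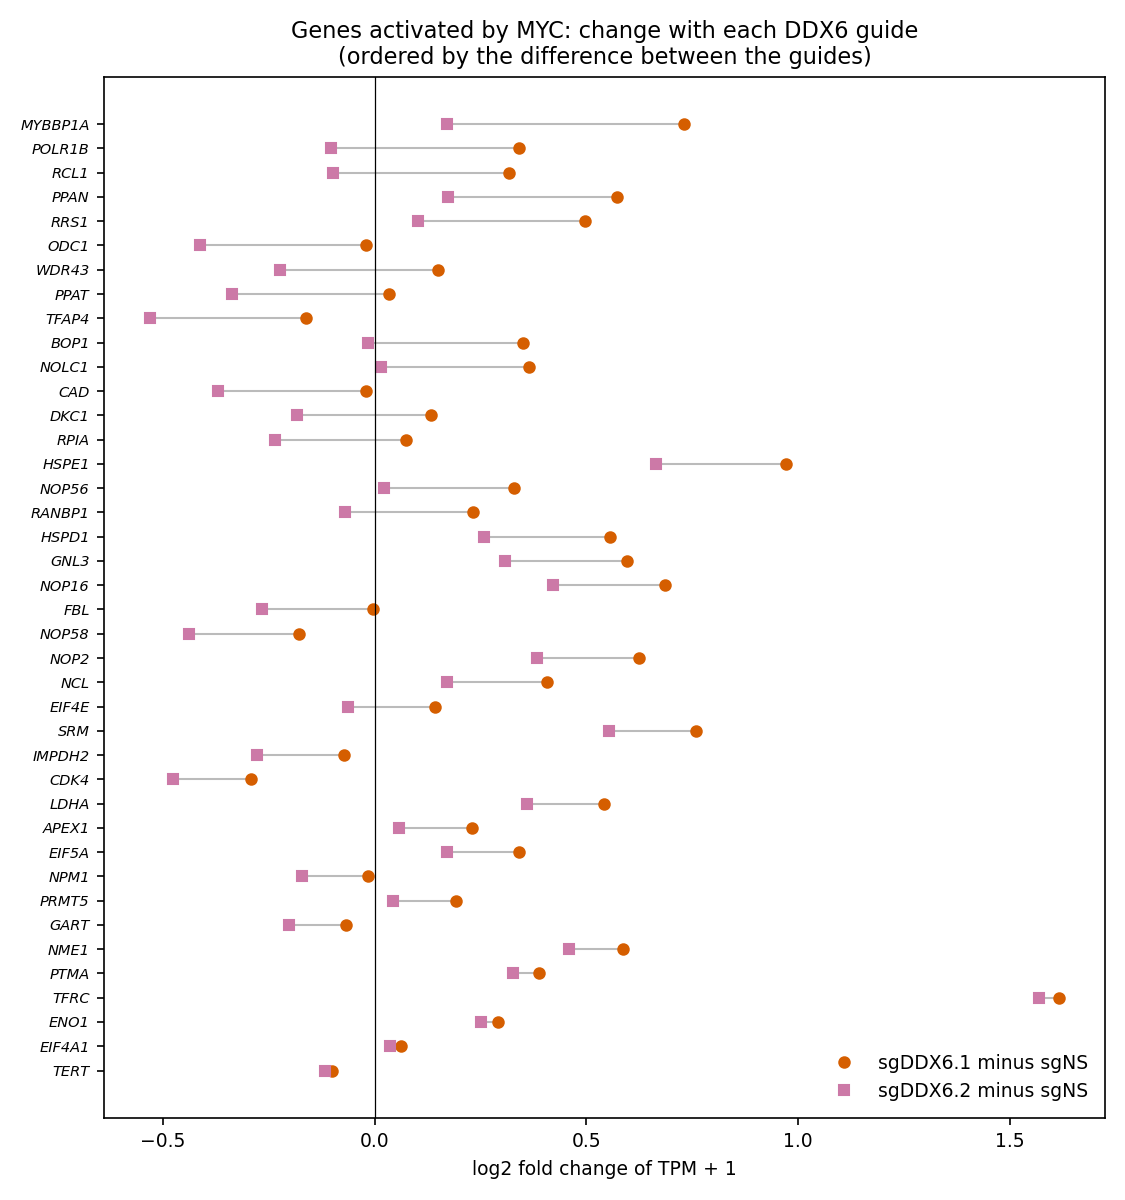
Log2 fold change of TPM + 1 for the 40 tested genes activated by MYC, sgDDX6.1 minus sgNS and sgDDX6.2 minus sgNS, ordered by the difference between the guides. The sgDDX6.2 symbol lies left of the sgDDX6.1 symbol in all 40 genes, and TFRC lies farthest to the right with both guides.

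Of 12 tested genes known to be repressed by MYC, 7 were higher and 5 lower for both guides (median 0.27), where 33.8% of all tested genes were higher and 32.9% lower. For sgDDX6.1, 5 were higher and 6 lower (median -0.05), against 31.8% and 29.7% of all tested genes. For sgDDX6.2, 7 were higher and 4 lower (median 0.33), against 31.5% and 32.7% of all tested genes. TXNIP fell by 1.96, GADD45A by 1.84 and the antiproliferative gene BTG1 by 1.08, and BTG2 rose by 0.57 (adjusted p = 3.18e-07 by limma). CDKN1A, the cell cycle inhibitor p21, was named after its values were seen. It had 19.64 and 19.25 TPM in sgDDX6.1 cells, 42.91 and 44.20 TPM in sgDDX6.2 cells, and 25.67 and 25.36 TPM in sgNS cells. It was lower than sgNS with sgDDX6.1 (-0.38) and higher with sgDDX6.2 (0.75), with a difference between the guides of 1.12 (limma adjusted p = 2.5e-07). Between the guides, 6 of the 12 genes were higher and 2 lower with sgDDX6.2, against 17% and 18.6% of all tested genes. Leaving out sgDDX6.1 replicate 2 gave 3 higher, and leaving out any 1 of the 6 libraries gave 1 lower. Treating the 4 sgDDX6 libraries as 1 group left 4 higher for both guides.

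TXNIP, ARRDC4 and KLF10, known targets of MLX complexes, fell with both guides. Of 10 tested targets, 2 were higher (33.8% of all tested genes), 6 lower (32.9%) and 2 not called for both guides, with a median of -0.28. The 2 not called, named after their values were seen, were HK2 (-0.06) and KHK (0.10). TXNIP, an inhibitor of glucose uptake and of thioredoxin, had 122.27 and 114.06 TPM in sgDDX6.1 cells, 126.54 and 126.50 TPM in sgDDX6.2 cells, and 486.12 and 468.94 TPM in sgNS cells, a log2 change of -1.96 (SE 0.038, limma adjusted p = 2.79e-12). Its close relative ARRDC4 had 1.48 and 1.51 TPM in sgDDX6.1 cells, 2.10 and 2.07 TPM in sgDDX6.2 cells, and 13.48 and 11.72 TPM in sgNS cells, a change of -2.29 (SE 0.082, adjusted p = 6.61e-10). KLF10, a further target, fell by 1.05 (adjusted p = 1.09e-07), with 15.3 to 17.6 TPM in the sgDDX6 libraries and 36.82 and 32.75 TPM in the sgNS libraries. ACLY, the ATP citrate lyase of lipid synthesis, rose by 0.45 (adjusted p = 2.66e-07). For TXNIP, ARRDC4 and KLF10 all sgDDX6 libraries lay below both sgNS libraries, while the MLX values of the same libraries overlapped.

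Promoter windows are shown for TXNIP, which holds a paired site known for MLX complexes, and for ARRDC4, which holds a single CACGTG. Of the 2 TXNIP windows, 1 holds CACGNG at 2 places with 5 bases between them, beginning 88 bases before the start. It is shown at chr1:145996631-145996687 on the minus strand of GRCh38.p14. This pair was searched on both strands, can include a CACGTG, and was present in 0.0732% of 27305 genes. The window of ARRDC4, at chr15:97960473-97960518 on the plus strand, holds no such pair but a CACGTG beginning 210 bases before the start. A CACGTG was present in 8.77% of the same 27305 genes. KLF10 had no promoter window to search. Motifs are in capitals.
TXNIP: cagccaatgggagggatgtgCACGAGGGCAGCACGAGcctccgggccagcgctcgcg
ARRDC4: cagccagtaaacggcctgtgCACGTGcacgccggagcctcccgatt
The sequences are from RefSeq and describe the reference genome.

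**Figure D5:**
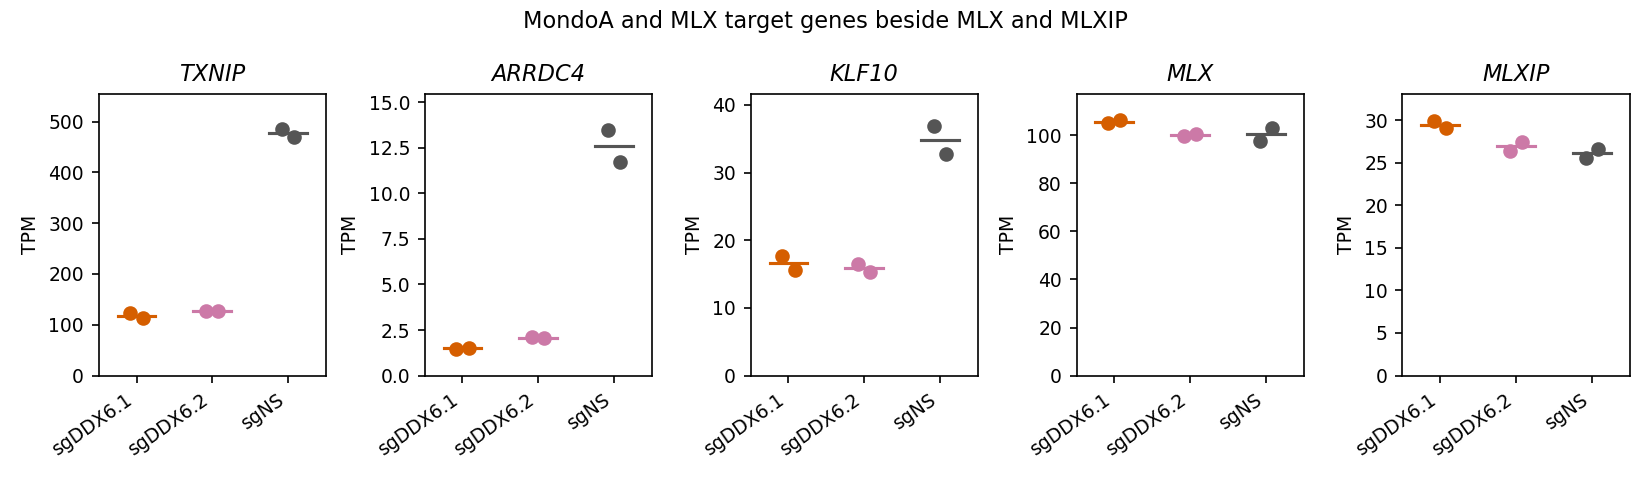
TPM of MLX, MLXIP, TXNIP, ARRDC4 and KLF10 in each library (points) with the mean of 2 (line), by group (sgDDX6.1, sgDDX6.2, sgNS). MLX stays between 97.7 and 106 TPM in all 6 libraries, while TXNIP sits at 114 to 127 TPM in sgDDX6 libraries and at 486 and 469 TPM in sgNS libraries.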

How the data were processed

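RNA was measured in 6 libraries, 2 for each of sgDDX6.1, sgDDX6.2 and sgNS, grouped by their labels. The table the authors deposited holds TPM. It was made with RSEM 1.2.31 on build GRCh38, per the submitters' processing notes. Neither the aligner nor the annotation is given in the sources used here. TPM is a share of each library and keeps no depth, so no interval that needs counts is given, and a rise of abundant genes lowers the share of others. RSEM divides reads shared by near-identical genes by its model. The table had 0 unused per-sample columns.

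From the deposited TPM, log2(TPM + 1) was computed for the 11151 genes that reached a TPM of 1 in at least 2 libraries. Group means of all 3 groups were estimated in a linear model with limma 3.58.1 in R 4.3.3 (variance trend, two-sided tests, 3 residual degrees of freedom), with Benjamini-Hochberg adjustment over all tested genes in each comparison and a threshold of 0.05. The procedure was checked on simulated data.

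Of 188 entries in 9 gene lists, 177 were found, 1 of them under another symbol. All members were named, and from each list up to 4 genes with the lowest adjusted p for both guides. For MYC, and for members past the threshold with an absolute log2 change of at least 0.5, the 3 closest genes with a mean TPM of at least 5 were named. Members and lists were chosen with earlier results of these data known. Gene coordinates and transcripts are from GENCODE release 29, which may not be the authors' annotation. Alternatives were pseudocounts of 0.1 and 5, no filter or a TPM filter of 5, quantile normalization, median centring, rescaling without ribosomal protein genes, robust estimation or no variance trend in limma, the replicate number as a block, 1 group for the 4 sgDDX6 libraries, a fit on the groups compared, and leaving out each library.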

Additional observations from a re-analysis of the deposited data

How the results depend on the processing

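The number of network genes called ranged from 5 to 7 for both guides (6 in the fit reported), 4 to 7 for sgDDX6.1 (7), 4 to 6 for sgDDX6.2 (5) and 3 to 5 between guides (4). Leaving out each library gave 5 to 6, 4 to 7, 4 to 6 and 3 to 5. The replicate block gave 6, 7, 5 and 4, as did the fit without it. Same-numbered libraries had deviation correlations of 0.04, 0.262 and 0.0977, not all over 0.1, so the numbers were not taken to pair the libraries. Of 680 alternative values for 40 gene values, 624 kept direction and side of the threshold, 32 lost a call, 9 gained one and 15 changed sign, 0 of those among called values. Rescaling without ribosomal protein genes moved the median of all genes to -0.08, and changed the sign for MAX with sgDDX6.1 (-0.0566), MGA (-0.0714) and MLX (-0.0515) with both guides, MLX with sgDDX6.1 (-0.0086) and MLXIP with sgDDX6.2 (-0.0451). MLX changed sign for both guides under quantile normalization (-0.0014) and for sgDDX6.2 under median centring (0.0107). Leaving out each library gave log2 changes of both signs, from -0.252 to 0.0015 for MAX, -0.0136 to 0.0412 for MGA and -0.0052 to 0.0741 for MLX with both guides, from -0.229 to 0.278 for MAX with sgDDX6.1, and from -0.0443 to 0.0351 for MLX with sgDDX6.2. Between guides it gave -0.0715 to 0.0935 for MXD1 and -0.179 to 0.0753 for MXD3. The causes were not tested. The number of 2 libraries a group and the absence of depth limit the precision.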
